A study of Mus musculus with 4 samples.

Results

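The ERK feedback and immediate early genes are 10 genes whose transcription follows signalling through the ERK kinases: Dusp6, Dusp4, Spry2, Spry4, Spred1, Etv4, Etv5, Egr1, Fos and Ier3. They were chosen by name, with earlier results of these data known. All 10 were found among the 55418 genes of the deposited count table and passed the filter on low counts. RNA was sequenced from ESCs of the mouse line E14 (strain label 12910la), with 2 libraries of WT cells and 2 libraries of Pim3-/- cells. Each Pim3-/- library came from a knockout clone of its own, made by CRISPR/Cas9 with guide RNAs against exons of Pim3, a serine/threonine kinase, so the group stands for 2 clones, and the effect of the knockout cannot be told apart from differences that clones acquire. WT and Pim3-/- ESCs were grown alike, on gelatin in serum medium containing LIF, a cytokine that maintains the undifferentiated state. For the WT libraries nothing beyond separate samples is stated, so p-values measure only the spread between these libraries.

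ERK is switched on when a growth factor binds its receptor, which in ESCs is mainly FGF4 at FGF receptors, and the signal passes through Ras, Raf and MEK. Active ERK enters the nucleus and phosphorylates transcription factors, and within minutes immediate early genes such as Egr1 and Fos are transcribed. A later set of target genes encodes inhibitors of the same pathway, among them the Sprouty and Spred proteins, which act on the way from the receptor to Raf, and the dual-specificity phosphatases, which remove phosphate from ERK itself. In ESCs, ERK signalling prepares cells to leave the undifferentiated state and favours primitive endoderm over epiblast in the embryo. PIM kinases have been linked to ERK signalling in other cells, which is the question that these genes bear on here.

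The libraries held between 22029427 and 25668307 counts on genes. Levels are given as CPM (counts scaled to a common library size) after scaling with edgeR's TMM factors, which compare libraries on the assumption that most genes do not differ. With the library totals in place of these factors, the median log2 fold change of all 18444 tested genes rose from 0.07 to 0.52, so a change close to that size depends on the scaling. SE is the standard error of a log2 fold change. For Pim3, WT gave 4392 and 4953 counts and the libraries labelled Pim3-/- gave 4970 and 4804, with a log2 fold change of -0.27 (SE 0.17, adjusted p = 0.251) that became 0.19 with library totals. A count over the whole gene does not test a small deletion, so groups are named as labelled. For its knockout clones the paper reports mutations found by DNA sequencing and loss of PIM3 protein on western blot. All 10 markers of ESCs were expressed, with a summed level of 9840 to 10894 CPM in WT and 6670 to 7014 CPM in Pim3-/- ESCs. At an adjusted p under 0.05, 4 of them were lower and 1 was higher in Pim3-/- ESCs, beside 16.2% and 17.6% of all tested genes.

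Of the 10 genes, 9 had a log2 fold change above 0 in Pim3-/- over WT ESCs, as did 53.0% of all tested genes, and 1, Etv4, was below 0. The changes of Spry4 and Fos passed the test, the quasi-likelihood test of edgeR at an adjusted p under 0.05 (Benjamini-Hochberg, over all tested genes), and none of the others did. Genes called higher at this threshold made up 17.6% of all tested genes and genes called lower 16.2%, so 2 of 10 is close to the background. Spry4 and Fos were also at least 3-fold higher, and 8.47% of all tested genes were both called higher and changed by that much. The median log2 fold change of the 10 genes was 0.56, beside 0.07 for all tested genes. Both Pim3-/- libraries lay above both WT libraries for 6 of the 10, against 38.3% of all tested genes, and the reverse order, seen for 34.2% of all tested genes, was found for 0 of the 10. With library totals all 10 were above 0, and 7 were called higher and 0 lower, against 35.8% and 5.92% of all genes. The Wald test of DESeq2 called 1 higher and 0 lower, against 7.88% and 10.3% of the 31418 genes that had any count. That set includes genes that the filter on low counts removed, so its shares have a different base from the others here. Without Pim3-/- replicate 1 the counts were 8 higher and 1 lower (28.3% and 27.5% of all genes), and without replicate 2 they were 2 higher and 1 lower (25.5% and 25.3%).

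**Figure D1:**
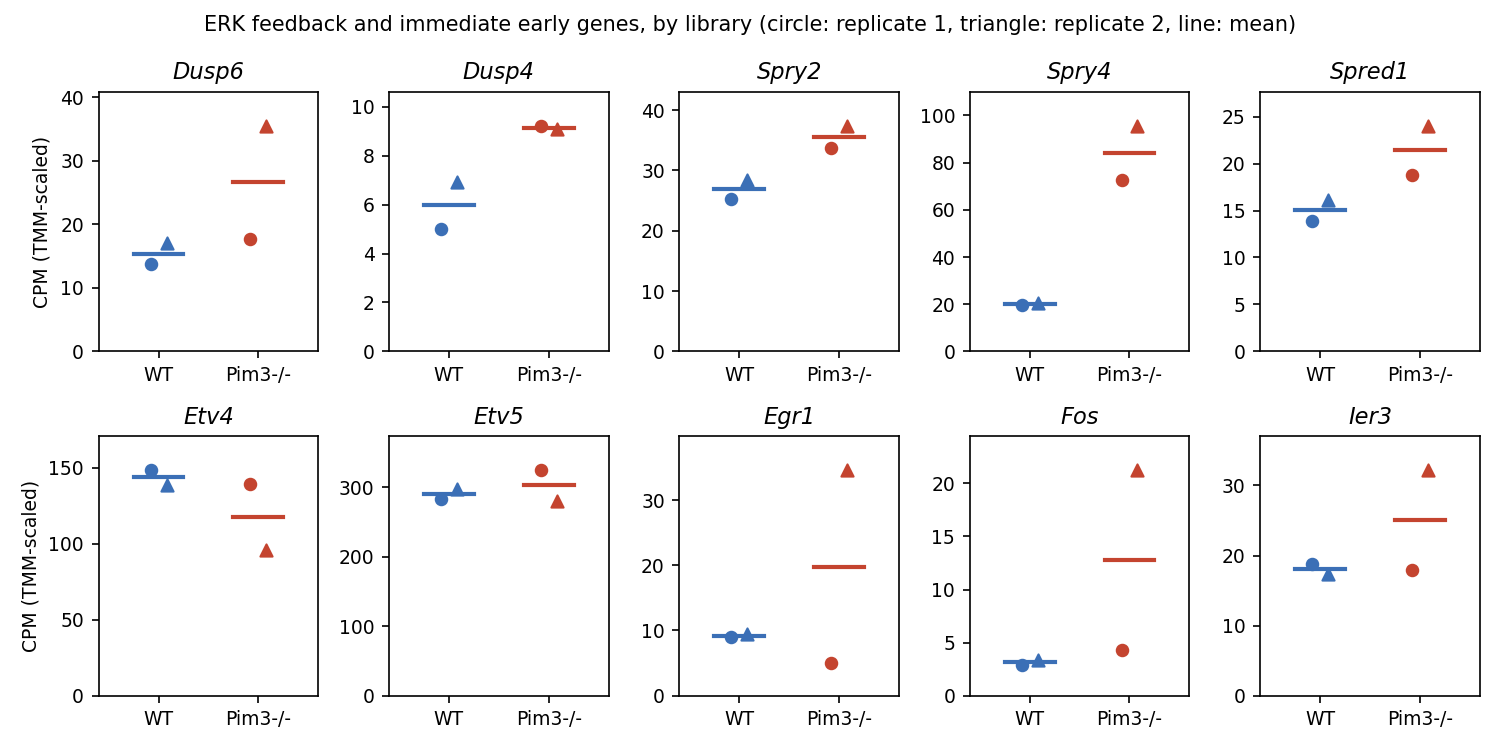
Level of each of the 10 genes in CPM after TMM scaling (vertical axes, linear from 0) in WT and Pim3-/- ESCs, with replicate 1 as a circle, replicate 2 as a triangle and the mean of 2 libraries as a line. Spry4 lies between 72.5 and 95.6 CPM in Pim3-/- ESCs, far above WT, while Egr1, Fos, Ier3 and Dusp6 are spread widely between the Pim3-/- libraries.

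Spry4 was the member with the clearest difference between the groups. It encodes a Sprouty protein, an inhibitor of receptor tyrosine kinase signalling, and lies on chromosome 18 from 38586247 to 38601415 on the minus strand (GRCm38). WT cells gave 374 and 467 counts and Pim3-/- cells 1936 and 2464, or 19.5 and 20.6 CPM against 72.5 and 95.6 CPM. The groups did not overlap, and the lower Pim3-/- library stood above the higher WT library by more than the distance between the libraries of either group. The means of 20.1 CPM ± 0.774 (SD, n = 2) and 84.1 CPM ± 16.3 (SD, n = 2) gave a 4.19-fold rise with a 95% confidence interval of 3.06 to 5.72. On the log2 scale this was 2.07 (SE 0.19, adjusted p = 0.00263). Spry4 was called higher under each of the alternatives that were run, including the Wald test of DESeq2, library totals and the omission of each library, with values between 1.84 and 2.52.

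Spry2, a second Sprouty gene (chromosome 14, 105891947 to 105896819), was at 25.3 and 28.5 CPM in WT and at 33.7 and 37.4 CPM in Pim3-/- ESCs. Its groups did not overlap, yet the difference was small, with a log2 fold change of 0.40 (95% confidence interval 0.01 to 0.80, adjusted p = 0.103). The ratio of Spry4 to Spry2 counts, which no scaling of libraries can alter, was 0.773 and 0.724 in WT, and 2.15 and 2.56 in Pim3-/- ESCs. Relative to Spry2, Spry4 was thus higher in each Pim3-/- library than in each WT library, by 1.65 on the log2 scale against a spread between libraries of 0.13 (pooled SD). Spred1 (chromosome 2, 117121374 to 117182279), whose product binds Ras and recruits the Ras inhibitor neurofibromin, had 13.8 and 16.2 CPM in WT and 18.8 and 24.0 CPM in Pim3-/- ESCs. Here too the groups stood apart, but the log2 fold change of 0.51 did not pass the test (95% confidence interval 0.02 to 1.00, adjusted p = 0.0968). With library totals both genes were called higher, Spry2 at 0.85 and Spred1 at 0.96.

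Spry4 rose beside a change in markers of another cell type. Of 14 genes that mark primitive endoderm, 11 were called higher in Pim3-/- ESCs and 0 lower, with a median log2 fold change of 3.16 over the 13 tested. Of all tested genes, 17.6% were called higher and 16.2% lower, the background for each marker list below too. Summed, the 14 endoderm markers reached 449 and 466 CPM in WT, and 755 and 727 CPM in Pim3-/- ESCs. Sparc, which was not called, made up most of the sum in WT. Gata6, a transcription factor of primitive endoderm, went from 11 and 19 counts to 240 and 112, and Foxa2 from 0 to 5 and 7. Some of these markers differed strongly between Pim3-/- replicates 1 and 2. Sox17 had 85 and 10 counts, Dab2 189 and 46, and Cubn, which was not called, 180 and 10. Others were similar in both libraries, among them Col4a1 at 3405 and 3474 counts and Lama1 at 2797 and 2620. Of 8 mesoderm markers 6 were tested and 1, Eomes, was called higher (74 and 69 against 281 and 572 counts, log2 fold change 2.24, adjusted p = 0.0072). The other tested mesoderm markers were not called. The summed level of the 8 was 9.09 and 7.82 CPM in WT, and 17.3 and 28.2 CPM in Pim3-/- ESCs. Eomes alone made up most of the sum in Pim3-/- ESCs, so the sum does not show a rise of the list as a whole. Of 8 fibroblast markers only 2, Thy1 and Col1a1, had enough counts to be tested, and 0 of these were called. Col1a1 had 33 and 38 counts in WT against 140 and 52 in Pim3-/- ESCs. Col1a2, which was not tested, had 1 and 3 against 30 and 3, and Lum was at 0 in every library. The summed level was 20.5 to 25.6 CPM over the 4 libraries. Most of it came from Thy1, at 400 and 448 against 508 and 469 counts. The markers named here were picked out after their values were seen. The part of these lists in the result for Spry4 was not tested, and in bulk RNA a change in the number of cells of a type and a change in RNA per cell cannot be told apart.

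**Figure D2:**
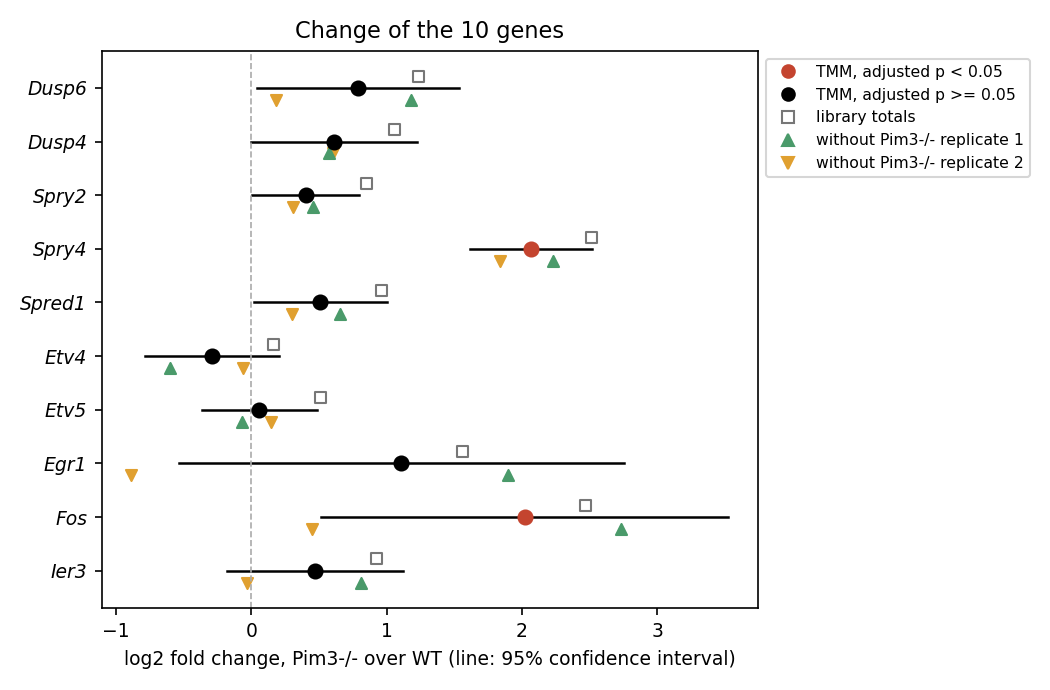
Log2 fold change of the 10 genes, Pim3-/- over WT (horizontal axis), as circles with 95% confidence intervals from edgeR's quasi-likelihood fit with TMM scaling. Squares give the value with library totals, and triangles the value without each Pim3-/- library. For Spry4 these values stay between 1.84 and 2.52, while those for Egr1 run from -0.89 to 1.90.

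Dusp6 encodes a cytoplasmic phosphatase with high preference for ERK and is widely used as a readout of ERK activity. The gene (chromosome 10, 99263231 to 99267489) was at 13.7 and 17.1 CPM in WT, at 17.8 CPM in Pim3-/- replicate 1 and at 35.5 CPM in replicate 2. The first Pim3-/- library lay just above WT, and the second was far from it. The log2 fold change was 0.79 (SE 0.32, 95% confidence interval 0.04 to 1.54, adjusted p = 0.0932). Without Pim3-/- replicate 2 it was 0.18, and without replicate 1 it was 1.18.

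Dusp4, a nuclear phosphatase of the same family (chromosome 8, 34807297 to 34819894), had similar levels in the Pim3-/- clones. It was at 5.01 and 6.93 CPM in WT and 9.22 and 9.08 CPM in Pim3-/- ESCs, so that the Pim3-/- libraries were nearly equal and both above WT. The log2 fold change of 0.61 did not pass the test (SE 0.26, 95% confidence interval -0.0041 to 1.23, adjusted p = 0.109). The ratio of Dusp6 to Dusp4 counts was 2.74 and 2.46 in WT and 1.93 and 3.91 in Pim3-/- ESCs, and these ranges overlap. With library totals Dusp6 and Dusp4 were called higher, at 1.24 and 1.06.

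Etv4 and Etv5 encode ETS transcription factors of the PEA3 group, which FGF signalling induces in many embryonic tissues. Etv5 (chromosome 16, 22381309 to 22439719) had 283 and 298 CPM in WT and 325 and 281 CPM in Pim3-/- ESCs, so that WT lay within the range of the Pim3-/- libraries. Its log2 fold change was 0.06, with a 95% confidence interval from -0.37 to 0.49 (adjusted p = 0.818). Etv4 (chromosome 11, 101769742 to 101785371) had 148 and 139 CPM in WT, 139 CPM in Pim3-/- replicate 1 and 96.0 CPM in replicate 2. Only the last library stood below the others. The log2 fold change was -0.29 (95% confidence interval -0.79 to 0.21, adjusted p = 0.320), and with library totals it was 0.16. The ratio of Etv4 to Etv5 counts was 0.525 and 0.466 in WT and 0.428 and 0.342 in Pim3-/- ESCs. The groups did not overlap in this ratio, and the shift of -0.37 on the log2 scale compares with a pooled SD of 0.18.

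Fos, Egr1 and Ier3 are immediate early genes, and their levels split the Pim3-/- libraries. Fos (chromosome 12, 85473890 to 85477273) encodes a subunit of the transcription factor AP-1. WT gave 56 and 76 counts, against 116 in Pim3-/- replicate 1 and 548 in replicate 2, or 2.92, 3.36, 4.35 and 21.3 CPM. The first Pim3-/- library was slightly above WT, and the second stood far above all others. The means of 3.14 CPM ± 0.306 (SD, n = 2) and 12.8 CPM ± 12.0 (SD, n = 2) gave a log2 fold change of 2.02 (SE 0.65, 95% confidence interval 0.52 to 3.53, adjusted p = 0.0460). This call rested on Pim3-/- replicate 2. Without that library the value was 0.45 (adjusted p = 0.212), and without WT replicate 1 or 2 it was 1.89 and 2.06 (adjusted p = 0.147 and 0.121). In the Wald test of DESeq2 Fos was not called (adjusted p = 0.136, where the alternatives ranged from 3.5e-34 to 0.212).

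The promoter of Fos is shown because Fos, with Egr1, had the widest spread between the Pim3-/- libraries. The 250 bases before its RefSeq start, chr12:85473640-85473889 on the plus strand (GRCm38.p6), were searched on both strands for the letters TGACGT, the core of the cAMP response element, for CCGGAA, a binding site of ETS factors, and for the CArG box, the site of serum response factor. Capitals mark the match.
Fos: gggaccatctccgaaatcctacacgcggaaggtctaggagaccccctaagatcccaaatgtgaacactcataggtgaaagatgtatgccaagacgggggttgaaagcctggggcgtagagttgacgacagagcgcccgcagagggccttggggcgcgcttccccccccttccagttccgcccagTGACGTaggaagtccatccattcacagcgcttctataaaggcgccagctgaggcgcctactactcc
A single match was found, TGACGT at -66 to -61 from the start, and 6.47% of the 32851 promoter windows of the same length held these letters. CCGGAA was present in 12.0% and the CArG box in 1.47% of all windows and in 0 of the windows of the 6 members with a promoter entry, and TGACGT was found in Fos alone among these 6. Bases farther upstream were not searched, so the lack of a match holds for these 250 bases only and not for the whole promoter.

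Egr1 encodes a zinc finger transcription factor and lies on chromosome 18 from 34859823 to 34864984. WT gave 171 and 213 counts, against 134 in Pim3-/- replicate 1 and 892 in replicate 2, or 8.93, 9.41, 5.02 and 34.6 CPM. WT lay between the Pim3-/- libraries, with replicate 1 below and replicate 2 above. The log2 fold change of 1.11 had a 95% confidence interval from -0.53 to 2.75 (adjusted p = 0.251). Its direction depended on the library, with -0.89 without replicate 2 and 1.90 without replicate 1. Ier3 (chromosome 17, 35821684 to 35822923), whose product affects cell survival and is a substrate of ERK, had 18.9 and 17.4 CPM in WT, 17.9 CPM in Pim3-/- replicate 1 and 32.2 CPM in replicate 2. Replicate 1 was within the range of WT and replicate 2 above it, and the log2 fold change was 0.47 (95% confidence interval -0.18 to 1.12, adjusted p = 0.221).

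The difference between the libraries of a group was then set out gene by gene, with intervals that cover counting error only. In Pim3-/- replicate 2, Egr1 was 6.89-fold higher than in replicate 1 (95% exact binomial interval 5.74 to 8.33) and Fos 4.89-fold higher (4.0 to 6.03). Among all tested genes, 0.483% differed at least as far as Egr1 in either direction, and 0.873% as far as Fos. Dusp6 was 2.00-fold higher in replicate 2 (1.79 to 2.24) and Ier3 1.79-fold (1.6 to 2.01), sizes that 10.8% and 15.6% of all tested genes reached. Spry4 differed by 1.32-fold (1.24 to 1.40) and Dusp4 by 0.985-fold (0.820 to 1.18). Between the WT libraries, the ratio of replicate 2 to replicate 1 lay between 0.921 for Ier3 and 1.38 for Dusp4. Egr1 and Fos did not move in proportion between the groups, since the ratio of Egr1 to Fos counts was 3.05 and 2.80 in WT but 1.16 and 1.63 in Pim3-/- ESCs. That shift was -1.09 on the log2 scale, with a pooled SD of 0.25.

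**Figure D3:**
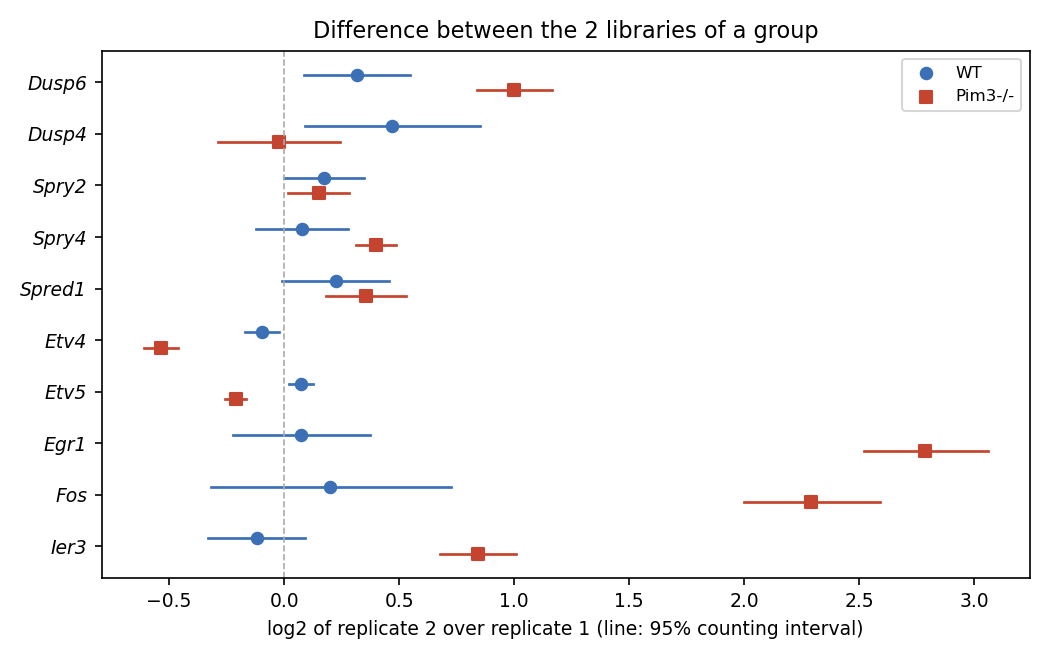
Log2 ratio of replicate 2 to replicate 1 (horizontal axis) for the 10 genes in WT (circles) and Pim3-/- ESCs (squares), with 95% counting intervals as lines. Egr1 at 2.78 and Fos at 2.29 lie farthest from 0, both in Pim3-/- ESCs, while the WT values stay between -0.12 and 0.47.

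Other immediate early genes did not share this split in a common direction. Of the 24 tested, Ccn2, which encodes connective tissue growth factor, was at least 2-fold higher in Pim3-/- replicate 2 (2.35-fold), while Atf3, Btg2 and Plk2 were higher in replicate 1, by 4.56, 2.94 and 2.60-fold. Of all tested genes, 5.57% and 5.20% differed by at least 2-fold in the same directions. Below 2-fold, Maff, Fosl1 and Klf6 were higher in replicate 2, by 1.93, 1.77 and 1.68-fold. Ccn1, Jun and Nr4a1 were higher in replicate 1, by 1.44, 1.29 and 1.25-fold. These genes were chosen after their values were seen. Dusp1, a phosphatase and itself an immediate early gene, had 39.8 CPM in replicate 1 and 92.1 CPM in replicate 2, against 35.6 and 32.9 CPM in WT. Heat shock genes were listed as a possible sign of handling. Of 8, 4 were called lower and 0 higher, beside 16.2% and 17.6% of all tested genes. The summed level of the 8 was 3219 CPM in both Pim3-/- libraries, against 8911 and 8591 CPM in WT. Most of this sum came from Hsp90aa1 and Hspa8, which differed in opposite directions between Pim3-/- replicates 1 and 2. Their counts were 30128 and 38648 for Hsp90aa1, and 40613 and 29759 for Hspa8. Hspa1a, which was not called, had 159 and 71 counts in Pim3-/- replicates 1 and 2, against 78 and 120 in WT. Hspa1b, also not called, had 180 and 107 counts, against 130 and 206 in WT. The heat shock genes named here were picked after their values were seen. The part of the heat shock genes in the results for Fos and Egr1 was not tested.

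Levels of different genes were compared as CPM per kilobase of annotated exon. In WT ESCs Etv5 was highest at 70.8 ± 2.59 (SD, n = 2), followed by Etv4 at 46.3 ± 2.19. Ier3 at 16.0 ± 0.935 and Spry2 at 12.9 ± 1.09 came next, then Dusp6 at 4.92 ± 0.758 and Spry4 at 4.22 ± 0.163. Spred1, Dusp4 and Egr1, at 2.21, 2.18 and 2.04, overlapped in their libraries and were not distinguishable in order, and Fos was lowest at 1.34 ± 0.130. In Pim3-/- ESCs Spry4 reached 17.7 ± 3.43 and overlapped with Ier3 at 22.2 ± 8.91 and Spry2 at 17.0 ± 1.26. Etv5 and Etv4 stayed first and second in the order, at 73.8 ± 7.59 and 37.9 ± 9.85. Fos and Egr1, at 5.44 ± 5.08 and 4.42 ± 4.66, were so far apart between libraries that their ranges took in those of Dusp4 and Spred1 and overlapped that of Dusp6.

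The rest of the pathway was followed in 9 lists by role, with 112 genes, of which 98 were tested. Of these, 24 were called higher (24.5%) and 9 lower (9.18%), beside 17.6% and 16.2% of all tested genes, and the median log2 fold change was 0.43. These shares depended on the scaling, and with library totals 52 were called higher and 3 lower. The shares of all tested genes moved too, to 35.8% higher and 5.92% lower. With 1 WT library left out, the test called far fewer genes in the whole table, and 7 of the 30 called genes that are named below were called whichever library was omitted: Dusp9, Epha2, Fgf3, Fgf17, Klb, Fgfr3 and Ksr1.

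**Figure D4:**
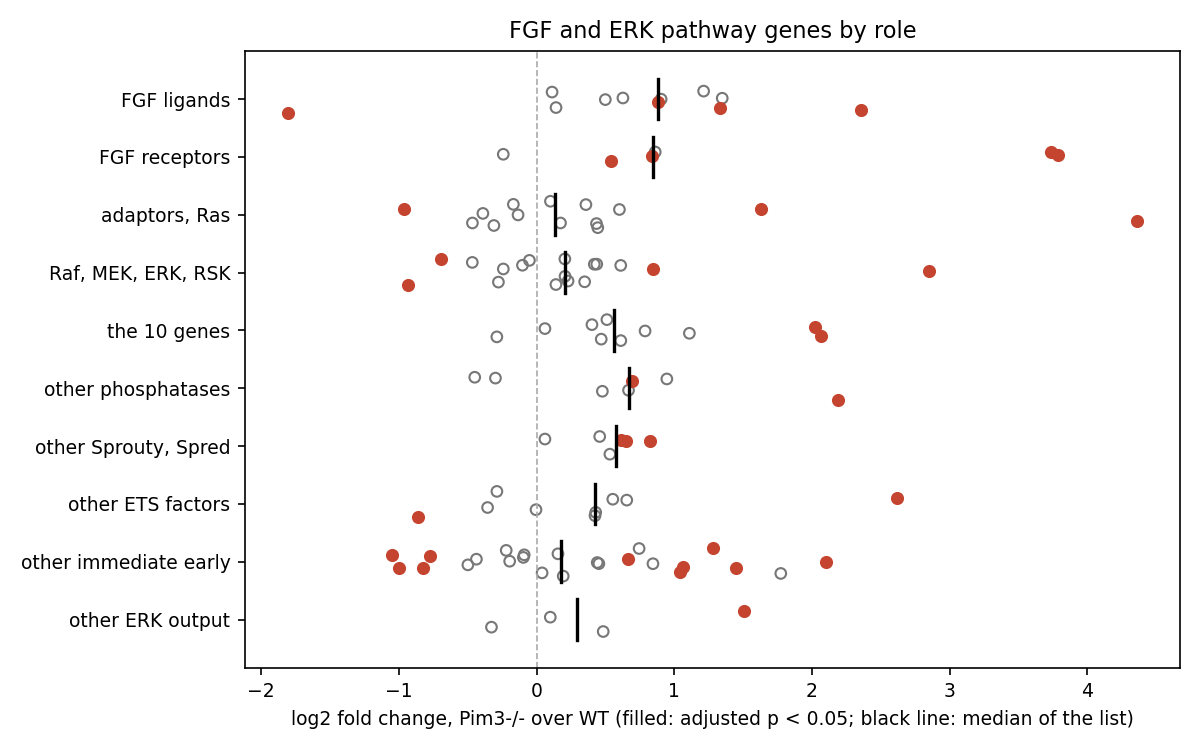
Log2 fold change, Pim3-/- over WT (horizontal axis), of the tested genes of the FGF and ERK pathway, grouped by role. Filled points passed an adjusted p under 0.05 in edgeR's quasi-likelihood test, open points did not, and black lines mark the median of each list. FGF ligands (0.88) and FGF receptors (0.85) have the highest medians, and both lists hold few genes.

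At the start of the pathway, 3 of 11 tested FGF ligand genes were called higher and 1 lower, beside 17.6% and 16.2% of all tested genes. Fgf4, the main FGF of ESCs, had 203 CPM ± 7.40 in WT and 287 CPM ± 44.3 in Pim3-/- ESCs (SD, n = 2), and its log2 fold change of 0.50 did not pass the test (adjusted p = 0.0780). Fgf3 rose by 2.36 on the log2 scale (29 and 22 against 147 and 186 counts, adjusted p = 0.00562), and Fgf1 and Fgf15 rose by 1.33 and 0.88. Fgf17 went the other way, at -1.81 (422 and 436 against 159 and 150 counts, SE 0.21, adjusted p = 0.00369). Fgf5, a marker of primed epiblast, had 0 counts except for 2 in Pim3-/- replicate 2. Among the receptors and co-receptors, 4 of 6 tested genes were called higher. Fgfr1, a receptor for FGF4, rose by 0.54 (adjusted p = 0.0364), a call that was lost in the Wald test and without a filter on low counts. Fgfr3 rose by 3.74 (20 and 16 against 417 and 198 counts), and by 3.12 without Pim3-/- replicate 1. Klb, a co-receptor for endocrine FGFs, rose by 3.79 (2 and 4 against 49 and 58 counts). Fgfrl1, a receptor without a kinase domain, rose by 0.84. Fgfr2, a receptor of primitive endoderm, was at -0.24 and did not pass (adjusted p = 0.567). The primitive endoderm markers given above moved in the same libraries, and their part in these values was not tested.

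Between receptor and nucleus, 2 of 14 adaptor and Ras genes were called higher and 1 lower, beside 17.6% and 16.2% of all tested genes. Gab2, a docking protein, had 1 count in each WT library, and 24 and 33 in Pim3-/- ESCs, a ratio after scaling of 22.7 with a 95% counting interval of 6.0 to 192. Sos2, an activator of Ras, rose by 1.63 on the log2 scale, and Nras fell by 0.96, from 185 CPM ± 8.82 to 95.2 CPM ± 3.58 (SD, n = 2). Among 17 kinases, 2 were called higher and 2 lower. Ksr1, a scaffold that holds Raf, MEK and ERK together, rose by 2.85 (45 and 47 against 407 and 431 counts, SE 0.25, adjusted p = 0.00241), and Rps6ka2, an RSK kinase, by 0.85. Mapk3, the gene of ERK1, fell by 0.69 (adjusted p = 0.0169), and Rps6ka6 fell by 0.93. Both calls were lost with library totals. Map2k1 and Map2k2, the genes of MEK1 and MEK2, were at 0.23 and -0.47, and neither passed the test.

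Among the other feedback genes, 2 of 7 tested phosphatases and 3 of 6 tested inhibitors were called higher, and 0 lower. Over all tested genes, 17.6% were called higher and 16.2% lower. Dusp9, a cytoplasmic ERK phosphatase encoded on the X chromosome from 73639419 to 73643514, rose by 2.19 (SE 0.26, adjusted p = 0.00361). Its counts were 1041 and 1417 in WT, against 8746 and 5291 in Pim3-/- ESCs, so the groups stood far apart. Dusp5 rose by 0.69, and Dusp1, which did not pass, was at 0.95 (adjusted p = 0.0702). Dusp1 was at 0.20 without Pim3-/- replicate 2, and it was called higher in the Wald test, with the replicate block, with library totals and without replicate 1. Errfi1, an inhibitor of EGF receptors, Lrig1 and Spred2 rose by 0.83, 0.65 and 0.62. Spry1 was at 0.06 and Il17rd, which encodes the FGF antagonist Sef, at 0.46, and neither passed. The call of Dusp5 and that of Lrig1 were lost in the Wald test and without a filter on low counts.

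Other immediate early genes were called in both directions, 6 higher and 4 lower of 24 tested, with a median log2 fold change of 0.17. These counts are close to the background of 17.6% and 16.2% of all tested genes. Fosl2, a relative of Fos, rose by 2.10 (14 and 23 against 101 and 98 counts, adjusted p = 0.00801). Maff, which encodes a small MAF protein, rose by 1.45, and Ccn2 by 1.28, or by 0.51 without Pim3-/- replicate 2. Jun, a partner of Fos in AP-1, rose by 1.04 (adjusted p = 0.0189). Junb fell by 1.05, from 72.2 CPM ± 2.37 to 34.9 CPM ± 0.0214 (SD, n = 2, adjusted p = 0.00531), Arc fell by 1.00 and Srf, the gene of serum response factor, fell by 0.83. With library totals the calls of Arc and Srf were lost. Myc was at -0.44 and did not pass (adjusted p = 0.178). Of 9 other ETS genes, Ets1 rose by 2.61 (8 and 12 against 98 and 57 counts) and Etv1, the third PEA3 factor, fell by 0.86, a call lost with library totals. Among 4 further genes used to score ERK output in tumour cells, Epha2, an ephrin receptor, rose by 1.51 (SE 0.18, adjusted p = 0.00369), and Ccnd1, the gene of cyclin D1, was at -0.33 (adjusted p = 0.160).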

How the data were processed

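RNA-seq was analysed for 2 WT and 2 Pim3-/- libraries, each counted as a single replicate. The deposited values are raw counts of reads per gene, to which the authors applied no normalization. The paper names Cutadapt, Hisat2, mm10 and Ensembl genes, while the submitters' processing notes name Trim Galore, STAR, featureCounts and GRCm38, so which tools made the counts is uncertain. Strand and multi-mapped reads are not given in the sources used here. None of the 10 genes shares an exon with another annotated gene.

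With edgeR 4.0.16, filterByExpr (count of 10, total of 15) retained 18444 of the 31418 genes that had any count. Counts were scaled by TMM factors and compared with edgeR's quasi-likelihood test in R 4.3.3, with Benjamini-Hochberg adjustment over all tested genes. Standard errors were taken from the fitted log2 fold change and its F statistic. Errors beside means are SDs. A count of 0 allows up to 3 counts, or 0.112 to 0.157 CPM, and such limits cover counting error only. Exon lengths and positions came from GENCODE vM21 (GRCm38), promoters from RefSeq (GRCm38.p6), with entries for 6 of the 10 genes. The Wald test was that of DESeq2 1.42.0. The method was tested on simulated counts. Figures were drawn with matplotlib 3.10.9.

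Named in the text are the 10 genes, Pim3, up to 3 genes called higher and up to 3 called lower per pathway list (largest change, both libraries of the higher group at 10 counts or more) and 15 genes given by name. A result for 1 other gene is not reported here. Others are marked where they occur. The members and lists were chosen with earlier results of these data known. Alternatives were other scalings, filters and tests, a replicate block and the omission of each library, and where a group then held 1 library it was assumed to vary like the other group. The TE table and ChIP-seq were not analysed here.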

Additional observations from a re-analysis of the deposited data

How the results depend on the processing

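Spry4 kept its direction and its call under all 10 alternatives. Scaled by library totals, log2 fold changes were 1.24 for Dusp6, 1.06 for Dusp4, 0.85 for Spry2, 0.96 for Spred1 and 0.92 for Ier3, which were then called higher, and the signs of Etv4 (0.16), Pim3 (0.19), Myc (0.017), Ccnd1 (0.12) and Fgfr2 (0.20) turned. Of the members 7 were then called higher, of the pathway genes 52 higher and 3 lower, and of all genes 6606 higher and 1092 lower. In the Wald test Fos (1.98) was not called, leaving 1 member. With a replicate block, Dusp6 (0.72) was called. Same-numbered libraries deviated with a correlation of 0.0196 over all tested genes, which gives no sign of pairing but cannot exclude a shared batch. The block called 3 members higher in place of 2, against 18.5% of all genes higher and 17.7% lower. With 1 library left out, values ranged from 0.18 to 1.18 for Dusp6, 0.35 to 0.78 for Dusp4, 0.27 to 0.46 for Spry2, 0.30 to 0.66 for Spred1, -0.60 to -0.061 for Etv4, -0.066 to 0.15 for Etv5, -0.89 to 1.90 for Egr1, 0.45 to 2.73 for Fos and -0.028 to 0.81 for Ier3. Likewise, Spry1 ranged from -0.22 to 0.27 and was -0.03 without WT replicate 1, Fgfr2 from -0.70 to 0.072, and Etv5 was -0.03 without WT replicate 1. Members called higher numbered 1 to 8 and lower 0 to 1, pathway genes 6 to 43 and 1 to 23, all genes 402 to 5393 and 373 to 5255. The lowest of these counts came from fits without a WT library and the highest from fits without a Pim3-/- library. The differences in log2 count ratio ranged from -0.43 to 0.59 for Dusp6 to Dusp4, 1.53 to 1.77 for Spry4 to Spry2, -0.53 to -0.21 for Etv4 to Etv5, -1.34 to -0.85 for Egr1 to Fos, -1.08 to 0.70 for Egr1 to Dusp6 and 0.48 to 1.93 for Fos to Ier3. The causes were not tested.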
